A study of Mus musculus with 21 samples.

Results

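The genotype comparison in lymph node dendritic cells (DCs) that lack an Aire reporter is described here. It sets 3 RNA-seq libraries of reporter-negative (AGF-) DCs from AireKO mice against 3 libraries of AGF- DCs from control mice, 6 of the 21 libraries of the series, chosen by their titles and not by any measured value. All mice were male C57BL/6 animals of 6 weeks per the labels, and all carried the reporter allele AGF-KI. The control genotype is AGF-KI/+ (KI/+ below) and the genotype that the titles call AireKO is AGF-KI/-, so both groups carry 1 reporter allele and differ in the allele opposite to it. Cells were taken from enzymatically digested lymph nodes through a CD45+CD11c+MHCII+ gate and split by the reporter. The AGF+ cells sorted from the same tissue (3 libraries of each genotype) are described here only as a reference. Their libraries also entered the edgeR fit behind the AGF- comparison, in its count filter, its scaling and its estimate of spread. The sources used here do not say which part of Aire the null allele lacks, how the reporter is joined to Aire, how sensitive the reporter gate is or whether cells of several mice were pooled. The labels call the 3 replicates of a group independent biological replicates.

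Aire, the autoimmune regulator, is a nuclear protein of medullary thymic epithelial cells, where it promotes the low-level expression of many tissue-restricted genes, and a few hematopoietic cells of lymph nodes also express it. Dnmt3l, its neighbour on the chromosome, encodes a catalytically inactive partner of the de novo DNA methyltransferases Dnmt3a and Dnmt3b that is known mainly from germ cells. DCs of a lymph node comprise resident conventional DCs of type 1 (cDC1) and type 2 (cDC2), plasmacytoid DCs and mature DCs that carry the chemokine receptor Ccr7, which guides them from tissues into the node. AGF- cells are the DCs of the gate that the reporter does not mark.

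The 6 libraries held 4392370 to 5559188 counts, so that 3 counts, the most that a count of 0 allows, correspond to 0.549 to 0.705 CPM, the usual scale that divides counts by library size. CPM values use effective library sizes scaled by TMM over the 12 lymph node libraries, and floors of this kind cover counting error only. The defining markers of the labelled cell type were present in every library. Ptprc, which encodes CD45, lay at 1677 to 2243 CPM, Itgax (CD11c) at 340.2 to 607 CPM, the class II gene H2-Aa at 2182 to 2488 CPM and Cd74 at 3612 to 4451 CPM, with Flt3 at 239 to 505 CPM and the DC transcription factor Zbtb46 at 133 to 274 CPM. Pairs of libraries within a group differed by more than counting noise (chi-square per degree of freedom 6.27 to 8.11 in KI/+ and 12.3 to 17.9 in AireKO), so none was counted as a duplicate.

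Some libraries stood apart in ways that touch the results below. Although the labels give male mice, Xist, the RNA of the inactive X chromosome, stood at 3431 CPM in KI/+ replicate 2 and at 3411 CPM in AireKO replicate 2, against 0.398 to 33.2 CPM in the other 4 libraries, and the Y-linked gene Ddx3y was at 0 in both libraries numbered 2. Each genotype holds 1 such library. The AireKO libraries also differed more among themselves than the KI/+ libraries, and AireKO replicate 2 was for several genes named below the AireKO library closest to the KI/+ values. Counts and medians that moved most with single libraries are given beside the result.

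Dnmt3l was the only gene that passed the test between genotypes in AGF- DCs, and it rose. In the KI/+ libraries it measured 0.470, 0 and 0.679 CPM, 5 counts in all, and in the AireKO libraries 10.9, 17.4 and 14.4 CPM, 221 counts in all. Every AireKO library thus lay far above the 3 KI/+ libraries, which were near the floor. The log2 fold change was 5.16 ± 0.42 (SE, 3 libraries against 3, 95% interval 4.25 to 6.06), with an adjusted p of 1.0e-04 from edgeR's quasi-likelihood test over 15884 genes. Of these genes 0.0063% were called. The SE and p of Dnmt3l rest on a spread estimated over all 12 lymph node libraries, AGF+ included. The SE was derived from the log2 fold change and the F statistic of the test. With 5 counts in KI/+ it is likely too small, and the symmetric interval too narrow. In a fit of the 6 AGF- libraries alone its log2 fold change was 5.14 with an adjusted p of 0.0920, and no gene was called there (579 at an unadjusted p under 0.05).

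Aire itself did not differ between the AGF- libraries of the 2 genotypes beyond their spread. It measured 15.8, 15.1 and 14.9 CPM across KI/+ libraries against 11.1, 15 and 13.8 CPM in AireKO. The groups overlap, since AireKO replicate 2 lies above KI/+ replicate 3, and the log2 fold change was -0.19 ± 0.16 (95% interval -0.55 to 0.16, adjusted p = 0.883). In AGF+ cells Aire fell by 2.19 ± 0.15 on the log2 scale (adjusted p = 8.6e-06, 1 of 2 genes called there, 0.0126% of all), from 140, 105 and 119 CPM to 24.2, 27.9 and 27.4 CPM. The genotype difference in AGF- cells minus that in AGF+ cells was 2.0 ± 0.22 (interaction term of the same fit, adjusted p = 0.0045), the only interaction called among all genes (0.0063%). Without the 4 lymph node libraries numbered 2 this difference was 2.02 with an adjusted p of 0.674. Because transcripts counted to Aire remained in AireKO cells, and the missing part of the gene is not stated, its count is a limited check of the genotype. In AGF- cells the Aire level gave no separation of the genotypes.

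**Figure D1:**
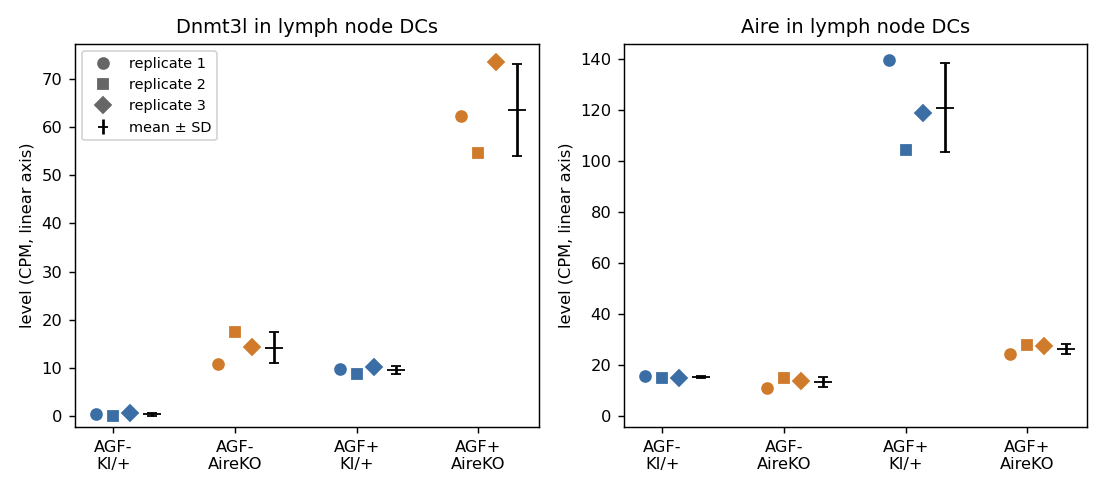
Level of Dnmt3l (left) and Aire (right) in each lymph node library, in CPM on a linear axis. Points are libraries, with shape giving the replicate number and colour the genotype, and bars give mean ± SD of 3 libraries. Dnmt3l is near 0 in the KI/+ AGF- libraries and at 10.9 to 17.4 CPM in the AireKO AGF- libraries, while Aire separates the genotypes in AGF+ cells only.

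Dnmt3l and Aire lie on opposite strands of chromosome 10 of GRCm38 and overlap. Dnmt3l (ENSMUSG00000000730) spans 78041947 to 78063622 on the plus strand, and Aire (ENSMUSG00000000731) lies on the minus strand from 78030022 to 78043610. In GENCODE vM21, which gives these spans, the exons of the pair share the 67 bases from 78042061 to 78042127. The sources used here do not say how reads there were assigned. RefSeq (GRCm38.p6) places 3 start sites of Dnmt3l, each shown as the 250 bases before and the 50 bases after it, because Dnmt3l is the gene the comparison turns on and the first of these windows lies inside the Aire gene. In the first window the capitals mark the 67 bases that GENCODE exons of both genes share. They lie before the RefSeq start of that window, because GENCODE begins Dnmt3l further upstream, at 78041947. In the other two the capitals mark CG dinucleotides, the sites that DNA methyltransferases act on.
Dnmt3l start 1, chr10:78042037-78042336, plus strand: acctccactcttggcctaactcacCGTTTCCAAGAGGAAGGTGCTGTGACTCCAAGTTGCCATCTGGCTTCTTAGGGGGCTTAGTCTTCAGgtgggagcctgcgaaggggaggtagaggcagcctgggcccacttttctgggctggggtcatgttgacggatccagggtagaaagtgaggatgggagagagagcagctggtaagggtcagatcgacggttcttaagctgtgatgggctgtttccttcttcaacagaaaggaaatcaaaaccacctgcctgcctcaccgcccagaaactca
Dnmt3l start 2, chr10:78049592-78049891, plus strand: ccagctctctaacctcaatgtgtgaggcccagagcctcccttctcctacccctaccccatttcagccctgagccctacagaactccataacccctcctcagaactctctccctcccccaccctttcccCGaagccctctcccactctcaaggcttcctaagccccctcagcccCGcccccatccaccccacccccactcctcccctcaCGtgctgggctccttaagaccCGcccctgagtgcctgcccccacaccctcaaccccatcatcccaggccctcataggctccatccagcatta
Dnmt3l start 3, chr10:78055085-78055384, plus strand: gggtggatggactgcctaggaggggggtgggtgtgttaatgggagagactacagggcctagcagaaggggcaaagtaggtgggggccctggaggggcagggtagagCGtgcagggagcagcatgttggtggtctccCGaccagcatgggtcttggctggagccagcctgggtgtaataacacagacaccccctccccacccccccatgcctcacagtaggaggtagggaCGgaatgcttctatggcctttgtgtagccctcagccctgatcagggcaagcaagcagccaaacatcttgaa
The 3 windows hold 6, 4 and 3 CG dinucleotides, which read the same on both strands. Over 32851 promoter windows of the same length in the RefSeq table the median was 7, and 94.6% held at least 1. At least as many CG as in the first window were found in 56.4% of windows, as many as in the second in 68.6% and as many as in the third in 76.7%. The corresponding window of Aire (chr10:78043561-78043860, minus strand) holds 16. These counts describe letters only, since methylation was not measured, and gene counts do not show which start was used.

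The level of Dnmt3l also rose between genotypes in AGF+ cells, where it stood higher in both genotypes. There it went from 9.71, 8.70 and 10.3 CPM in KI/+ to 62.3, 54.6 and 73.5 CPM in AireKO, a log2 fold change of 2.73 ± 0.23 (adjusted p = 1.1e-04). Mean Dnmt3l in AGF- cells was therefore 4.0% of the mean in AGF+ cells in KI/+ mice and 22.4% in AireKO mice. On the log2 scale the genotype difference was 2.42 ± 0.57 larger in AGF- than in AGF+ cells, which did not pass the adjusted test (unadjusted p = 6.4e-04, adjusted p = 1.000 by edgeR). That SE is likely too small as well, given the few Dnmt3l counts of the KI/+ AGF- libraries.

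To set these shares in context, 13 genes that mark the AGF+ sort were measured in the same way (the list came from earlier results of these data). Their mean level in AGF- cells was 1.06% to 26.2% of that in AGF+ cells in KI/+ mice (median 7.55%) and 0.605% to 40.0% in AireKO mice (median 5.72%), and 6 of the 13 had a higher share in AireKO. Acetylcholinesterase (Ache) stood at 1.48% and 1.34%, the amino acid transporter Slc7a10 at 1.06% and 0.605%, and the endothelial cell adhesion gene Esam at 26.2% and 26.8%. The Dnmt3l share of 22.4% in AireKO lies below those of Lhfpl2 (40.0%), Siglecf (32.5%) and Esam and above those of the other 10. Summed over the 13 genes, the AGF- levels were 47.7, 46.7 and 36.2 CPM for KI/+ and 36.6, 49.0 and 44.2 CPM for AireKO, beside 337 to 433 CPM in the 6 AGF+ libraries. The summed sort markers thus overlap between the genotypes in AGF- cells, but Esam alone, which the cDC2 list also holds, gave 22.7 CPM of the KI/+ mean of 43.6 CPM. Between genotypes 9 of the 13 genes had a negative log2 fold change in AGF- cells (median -0.21). At an unadjusted p under 0.05, 1 was higher (Lhfpl2, 1.93% of all genes) and 2 were lower (Tcte1 and Rimkla, 4.04% of all genes), none of them called. Whether reporter-expressing cells in the AGF- gate contribute to Dnmt3l was not tested.

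No other gene of the locus was called. Of 21 genes around Aire, 19 passed the filter on low counts, 11 with a positive and 8 with a negative log2 fold change (median 0.02), beside a median of 0.03 over all genes tested. Icosl, which encodes the ligand of the costimulatory receptor ICOS and lies next to Dnmt3l (78069302 to 78083913, plus strand), stood at 462, 474 and 344 CPM across KI/+ libraries against 266, 398 and 199 CPM in AireKO. AireKO replicate 2 lies above KI/+ replicate 3, and the log2 fold change of -0.57 ± 0.22 had an adjusted p of 0.819. Values of the ribosome biogenesis gene Pwp2 were 18.1, 20.2 and 17.6 CPM against 23.5, 24.5 and 18.2 CPM (0.24 ± 0.16, adjusted p = 0.857).

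None of the other genes of DNA methylation was called. The maintenance methyltransferase Dnmt1 stood at 181, 143 and 143 CPM across KI/+ libraries against 176, 141 and 149 CPM in AireKO. Dnmt3a, the main partner of Dnmt3l, stood at 285, 291 and 192 against 275, 287 and 177 CPM, with replicate 3 the lowest in both genotypes. Dnmt3b stood at 11.1, 11.4 and 8.82 against 12.9, 14.3 and 8.10 CPM. Their 95% intervals on the log2 scale were -0.33 to 0.32, -0.44 to 0.33 and -0.33 to 0.68. Of 17 methylation genes tested Dnmt3l alone was called, and none of the other 16 had an unadjusted p under 0.05. Hells, a chromatin remodeller needed for DNA methylation, measured 21.4, 26.1 and 32.1 CPM against 17.7, 20.7 and 23.1 CPM (-0.37 ± 0.18, 95% interval -0.76 to 0.02). For Uhrf1, which guides Dnmt1 to replicated DNA, the log2 fold change was -0.42 ± 0.27. Setdb1, a histone methyltransferase, measured 113, 119 and 113 CPM against 126, 128 and 127 CPM (0.14 ± 0.10), so that its libraries do not overlap. The median of the 17 was -0.04. Among 20 germline genes that DNA methylation is known to silence 3 passed the filter, with none called, and among 25 imprinted genes 9 passed, with none called and a median log2 fold change of -0.06.

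The genes best known as targets of Aire in thymic epithelium were hardly expressed in these cells. Of 42 tissue antigens of that kind, 26 had no count in any of the 6 libraries and 1, the mucin Muc6, passed the filter. Muc6 stood at 13.2, 8.18 and 10.6 CPM across KI/+ libraries against 11.3, 8.60 and 7.70 CPM in AireKO (-0.21 ± 0.27, adjusted p = 0.927). All 42 together gave 10.6 to 17.4 CPM per KI/+ library and 13 to 17.8 CPM per AireKO library. All 32 genes of known protein partners of Aire were tested, and 0 had an adjusted or an unadjusted p under 0.05 (median 0.04).

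Over all 15884 genes the comparison left 949 at an unadjusted p under 0.05 (5.97%), 307 of them higher (1.93%) and 642 lower (4.04%) in AireKO. With 1 AGF- library left out this number lay between 635 (without KI/+ replicate 1) and 1836 (without AireKO replicate 2, 686 higher and 1150 lower). Libraries of the genotypes did not overlap for 1400 genes (8.81%), 634 higher (3.99%) and 766 lower (4.82%). Log2 fold changes were above 0 for 54.7% of genes and below 0 for 45.3%. The precision behind the calls depended on abundance. The 95% interval lay inside a 2-fold change in either direction for 71.3% of genes, for 27.4% of those under an average log2 CPM of 3, 87.6% of those from 3 to 6 and 96.3% of those of 6 or more. In simulated counts of this layout 66 of 100 genes changed 2-fold and 95 of 100 changed 4-fold were called, with 11 false calls. There the changed genes were drawn above a minimum level, and all groups had the same spread for a gene, without pairs. The real AireKO libraries differed more among themselves than the KI/+ libraries. The simulated shares therefore do not give the share of real changes that would be called here.

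**Figure D2:**
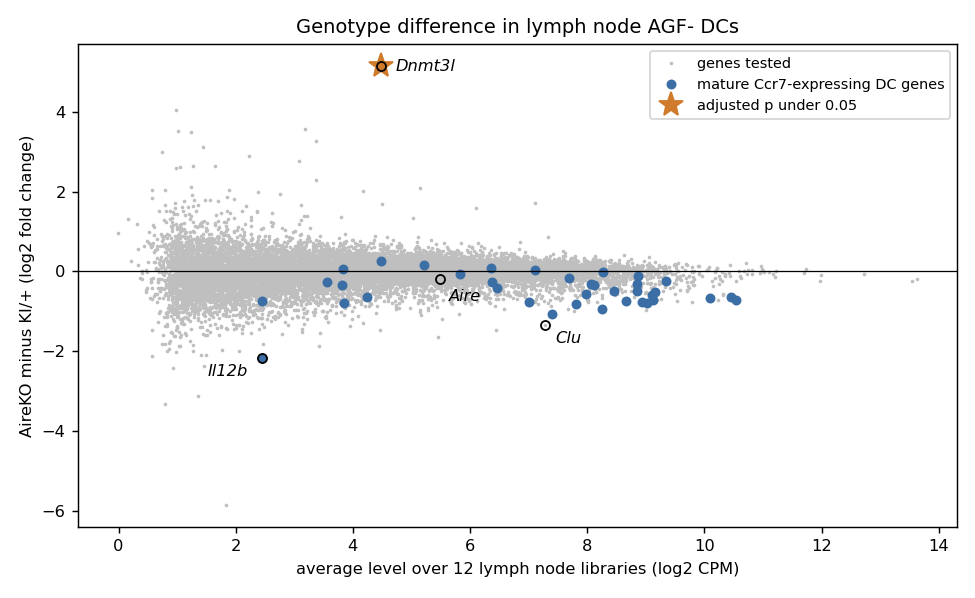
Log2 fold change between AireKO and KI/+ AGF- DCs (vertical) against average level over the 12 lymph node libraries in log2 CPM (horizontal), for 15884 genes (grey). Blue points are the 37 tested genes of the mature Ccr7-expressing DC list, and the star marks the 1 gene with an adjusted p under 0.05, Dnmt3l at 5.16. Most blue points lie below 0.

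The number of calls depended on 1 library. Without AireKO replicate 2 edgeR called 89 genes, 7 higher and 82 lower, where it called 1 when any other AGF- library was left out. The 89 included Dnmt3l (log2 fold change 4.97), the secreted chaperone Clu (-1.90), the ligand Wnt11 (-1.37), the cytokine subunit gene Il12b (-2.48) and the retinaldehyde dehydrogenase gene Aldh1a2 (-1.77). The replicate numbers paired the libraries (see the processing), and with the number as a block edgeR called 2 genes. These were Dnmt3l (5.16, adjusted p = 2.3e-04) and Capn11, a calpain protease gene. Capn11 had an adjusted p of 0.0030 with the block in edgeR and 0.0076 in DESeq2, but 0.257 in limma voom, where Dnmt3l alone was called. Capn11 stood at 5.88, 0 and 9.73 CPM across KI/+ libraries against 0, 0 and 0.203 CPM in AireKO, 68 counts against 1, a ratio of 78.8 with a counting interval of 13.7 to 3157. Without the block Capn11 had an adjusted p of 0.798, and its groups overlap because KI/+ replicate 2 is at 0. The 95% counting interval takes no account of the spread between libraries.

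Below Dnmt3l, the genes of at least moderate abundance with the smallest p whose libraries did not overlap were 7 higher and 8 lower in AireKO. None was called, each with an adjusted p of 0.798. Since the rule picks genes by these same values, they describe the top of the ranking and nothing more.

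Clu, an extracellular chaperone also called clusterin, stood at 287, 292 and 312 CPM across KI/+ libraries against 54.1, 188 and 106 CPM in AireKO (log2 fold change -1.35 ± 0.33). The potassium channel gene Kcna2 stood at 38.3, 21.8 and 27.8 CPM against 6.96, 17.4 and 9.73 CPM (-1.36 ± 0.31). Wnt11, a secreted ligand of the noncanonical Wnt pathway, stood at 39.5, 33.2 and 29.6 CPM against 11.7, 25.4 and 14.8 CPM (-0.97 ± 0.23). In all 3 of these genes AireKO replicate 2 was the AireKO library nearest to KI/+ and AireKO replicate 1 the farthest.

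The basal cell adhesion molecule gene Bcam stood at 7.05, 6.25 and 5.88 CPM against 2.78, 3.66 and 1.82 CPM (-1.20 ± 0.25). Tlr11, a sensor of microbial profilin expressed by cDC1, stood at 83.0, 65.3 and 64.0 CPM against 42.7, 47.0 and 27.8 CPM (-0.85 ± 0.22). For the sperm protein gene family member Izumo4 the values were 68.2, 60.1 and 57.7 CPM against 37.8, 41.5 and 38.7 CPM (-0.66 ± 0.16). Izumo4 thus differed little among the AireKO libraries. The zinc finger gene Zfp872 and the sulfotransferase gene Gal3st2 had log2 fold changes of -1.30 ± 0.33 and -0.84 ± 0.21.

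On the higher side Emilin2, an extracellular matrix glycoprotein gene, stood at 40.7, 43.3 and 33.0 CPM across KI/+ libraries against 77.7, 44.6 and 89.1 CPM in AireKO (0.85 ± 0.21). Bach2, a transcriptional repressor of lymphocytes, stood at 46.6, 65.0 and 59.0 CPM against 90.4, 83.6 and 76.0 CPM (0.55 ± 0.15). Lhfpl2, a gene of the AGF+ sort list, stood at 0.705, 0.215 and 1.36 CPM against 9.14, 5.12 and 1.42 CPM (2.76 ± 0.76). Lhfpl2 in AireKO replicate 3 was thus level with the highest KI/+ library. The mitochondrial complex I assembly gene Ndufaf7 (0.67 ± 0.17), the peptide transporter gene Slc15a3 (0.49 ± 0.13), the integrin gene Itgb5 (0.66 ± 0.18) and the prostaglandin transporter gene Slco2a1 (1.08 ± 0.30) complete the group.

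**Figure D3:**
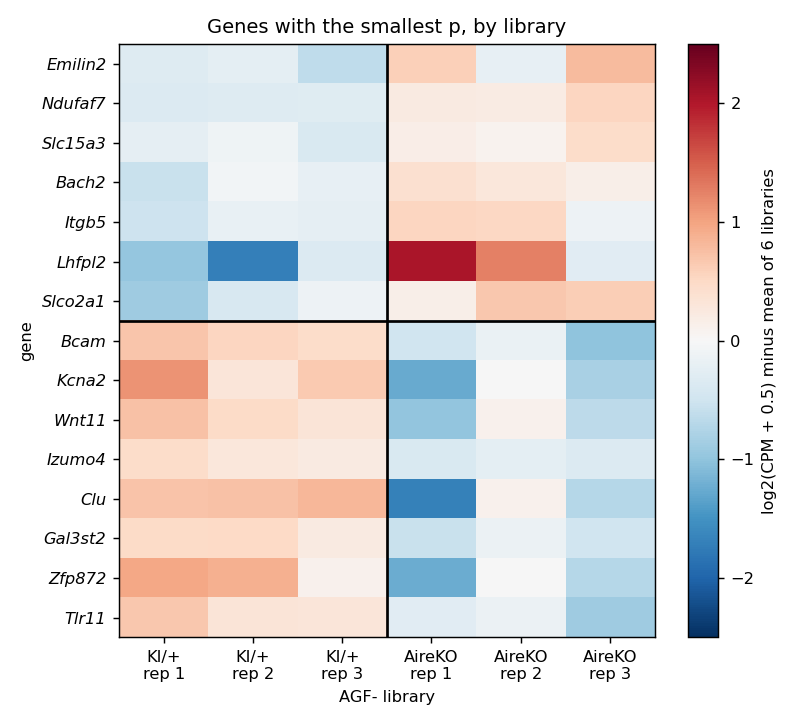
Level of the 15 uncalled genes with the smallest p (rows) in the 6 AGF- libraries (columns), as log2(CPM + 0.5) minus the mean of the 6 libraries. The upper 7 rows are higher and the lower 8 rows lower in AireKO, and in the lower block AireKO replicate 2 has the palest cells among the AireKO libraries for most genes.

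In AGF+ cells these 15 genes had smaller differences for the most part. The log2 fold changes there lay between -0.08 and 0.06 for the 7 higher genes. Of the 8 lower genes 7 were negative in AGF+ cells too, and 3 of the 15 had an unadjusted p under 0.05 there (3.67% of all genes), Kcna2 (-1.23 ± 0.34), Izumo4 (-0.42 ± 0.15) and Tlr11 (-0.60 ± 0.23). For 10 of the 15 the difference between the sorts had an unadjusted p under 0.05 in the interaction test, and 0 passed the adjusted threshold. Over all genes 1.64% had an unadjusted interaction p under 0.05, but the 15 were picked for their values in AGF- cells, which enter that term.

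Genes of the mature Ccr7-expressing state mostly had negative log2 fold changes in AGF- DCs, although none was called in the main fit. Of 38 listed genes 37 were tested, 32 with a negative and 5 with a positive log2 fold change, and the median was -0.50 beside 0.03 over all genes. At an unadjusted p under 0.05, 17 of the 37 were lower and 0 higher, beside 4.04% and 1.93% of all genes, and for 10 of the 37 the highest AireKO library lay below the lowest KI/+ library (4.82% of all genes). Summed over the list, the KI/+ libraries held 15112, 14046 and 12737 CPM and the AireKO libraries 6243, 12341 and 9788 CPM. The sums do not overlap, and AireKO replicate 1 at 44.7% of the KI/+ mean is the lowest while AireKO replicate 2 reaches 88.4%. In bulk samples fewer mature cells and less of these transcripts per cell cannot be told apart.

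Among receptors and cytoskeletal genes of this state, Ccr7 stood at 474, 448 and 319 CPM across KI/+ libraries against 136, 319.6 and 186 CPM in AireKO (-0.95 ± 0.30, adjusted p = 0.798). Fascin (Fscn1), which bundles actin in the dendrites of mature DCs, stood at 1596, 1350.4 and 1257 CPM against 549, 1239 and 918 CPM (-0.64 ± 0.26). The annexin gene Anxa3, which encodes a phospholipid-binding protein, stood at 574, 507 and 527 CPM against 192, 405 and 355 CPM (-0.76 ± 0.21). In these 3 genes the order of the AireKO libraries was the same, replicate 1 lowest and replicate 2 highest.

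Among secreted factors and regulators, Il12b, the p40 subunit shared by interleukins 12 and 23, stood at 7.05, 9.91 and 8.37 CPM against 0.994, 2.56 and 2.03 CPM. All AireKO libraries lay well below all KI/+ libraries, and the log2 fold change was -2.16 ± 0.39 with an adjusted p of 0.575 by edgeR. Over the alternatives that p ran from 1.7e-05, without a filter on low counts, to 1.000, and it was 0.0186 by DESeq2 and 0.0407 by edgeR without AireKO replicate 2. In AGF+ cells its log2 fold change was -2.06 ± 0.39 (adjusted p = 0.430). Cxcl16, a membrane-bound chemokine, stood at 583, 516 and 550.3 CPM against 210.3, 418 and 351 CPM (-0.75 ± 0.24). Socs2, an inhibitor of cytokine signalling, stood at 310.4, 203 and 191 CPM against 61.8, 154 and 118 CPM (-1.07 ± 0.34). Il12b, Cxcl16 and Socs2 share with Anxa3 and Fscn1 that no library overlaps.

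Not all members of the list had lower values. The costimulatory genes Cd80 (0.09 ± 0.20), Cd86 (0.03 ± 0.26) and Cd40 (-0.17 ± 0.18), chosen after their values were seen like Fscn1, Ccl22 and Aldh1a2, overlapped between the genotypes. Cd86 stood at 93.1, 108 and 91.6 CPM across KI/+ libraries against 60.2, 90.7 and 147 CPM in AireKO, so that the AireKO libraries span the KI/+ range on both sides. The chemokine gene Ccl22 stood at 399.9, 339 and 278 CPM against 99.8, 409 and 289.7 CPM (-0.35 ± 0.40), with only AireKO replicate 1 below the KI/+ libraries. Aldh1a2 stood at 26.3, 31.0 and 29.4 CPM against 8.35, 33.1 and 8.71 CPM (-0.78 ± 0.43), and AireKO replicate 2 is the highest of all 6.

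The count of lower mature genes moved with single libraries. It was 8 of 37 without AireKO replicate 1, 9 without KI/+ replicate 1 and 11 without KI/+ replicate 2, beside 3.14%, 2.58% and 2.89% of all genes lower in the same fits. Without AireKO replicate 2 it was 19, beside 7.02% of all genes lower at that unadjusted p. Of the 37 genes 3 were called there, beside 82 of 16381 genes called lower. The median lay between -0.75 and -0.29 in these leave-one-out fits. With no filter on low counts 17 of the 37 were called lower, beside 202 of 32883 genes. In AGF+ cells the median of the 37 genes was -0.31.

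Sterol synthesis genes also mostly had negative log2 fold changes. All 20 listed genes were tested, 19 with a negative log2 fold change, and the median was -0.39. At an unadjusted p under 0.05, 5 of 20 were lower and 0 higher (4.04% and 1.93% of all genes), and none was called. Their sums were 1227, 1046 and 958 CPM for KI/+ and 735, 961 and 754 CPM for AireKO, where AireKO replicate 2 lies just above KI/+ replicate 3. Cyp51, the lanosterol demethylase, stood at 67.2, 67.8 and 49.99 CPM across KI/+ libraries against 31.4, 50.3 and 31.0 CPM in AireKO (-0.71 ± 0.19). Sqle, squalene epoxidase, stood at 35.7, 25.4 and 30.3 CPM against 13.7, 24.2 and 20.9 CPM (-0.64 ± 0.21). The count of 5 was 11 without AireKO replicate 2 (with Cyp51 called), 12 without the libraries numbered 2, 1 without KI/+ replicate 1 and 3 without AireKO replicate 3. In these fits, in the same order, 7.02%, 5.14%, 2.58% and 3.36% of all genes were lower at that p. Without AireKO replicate 2, 82 of 16381 genes were called lower.

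Genes of NF-kB and RANK signalling, the pathway that drives both DC maturation and Aire expression in the thymus, were 19 negative and 4 positive of 23 tested (median -0.17). At an unadjusted p under 0.05, 6 were lower and 0 higher (4.04% and 1.93% of all genes). The receptor RANK (Tnfrsf11a) stood at 233, 224 and 178 CPM across KI/+ libraries against 104, 192 and 127 CPM in AireKO (-0.59 ± 0.20). Relb, a noncanonical NF-kB subunit that the mature list also holds, stood at 696, 593 and 385 CPM against 332, 494 and 278 CPM (-0.60 ± 0.23). Map3k14, the kinase NIK upstream of Relb, stood at 228, 193 and 169.9 CPM against 158, 151 and 115 CPM (-0.47 ± 0.18). None was called in the main fit. The count of 6 ranged from 2 (without AireKO replicate 1 or replicate 3, beside 3.14% and 3.36% of all genes lower in those fits) to 12 (without AireKO replicate 2, beside 7.02%), with 3 without KI/+ replicate 2 (2.89%). Tnfrsf11a was called without AireKO replicate 2, where 82 of 16381 genes were called lower.

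Genes of antigen presentation by class II molecules had overlapping sums. Of 19 genes 12 were positive and 7 negative, the median was 0.05, and 0 had an adjusted or an unadjusted p under 0.05. The summed class II genes stood at 14435, 14524 and 14262 CPM across KI/+ libraries against 13263, 14042 and 15956 CPM in AireKO. For H2-Aa, H2-Ab1 and H2-Eb1 the log2 fold changes were 0.02, 0.01 and -0.02. Of 20 class I genes 1 was lower at an unadjusted p under 0.05, which is near the share of all genes (4.04%). It was Nlrc5, the transactivator of that pathway, at 1070.3, 974.5 and 823 CPM against 613, 899.6 and 529 CPM (-0.49 ± 0.21, adjusted p = 0.821).

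**Figure D4:**
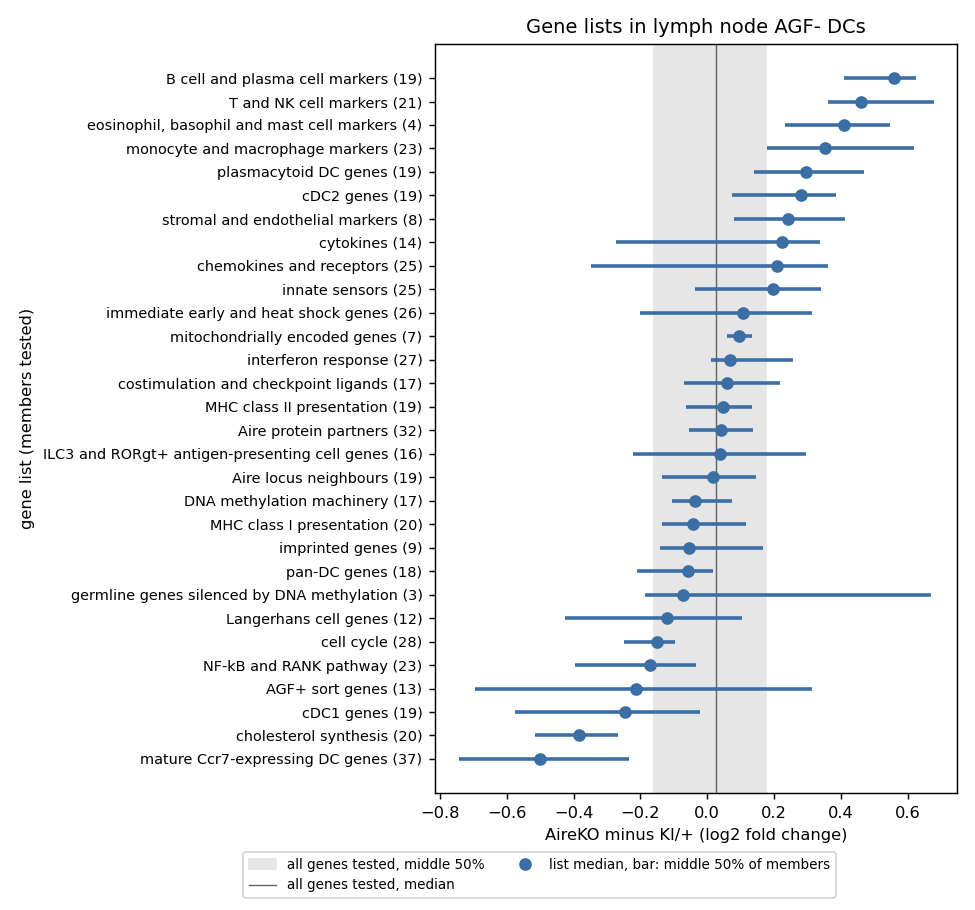
Median log2 fold change between AireKO and KI/+ AGF- DCs for each gene list with at least 3 tested members (number in brackets), with bars for the middle 50% of members, and the median and middle 50% of all tested genes as line and grey band. The mature DC list has the lowest median (-0.50) and the B cell list the highest (0.56).

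Lists of DC subsets had medians on both sides of 0, without a call. Of 19 cDC1 genes 14 were negative (median -0.25, and -0.42 to -0.11 with 1 library left out), 3 of them at an unadjusted p under 0.05 (4.04% of all genes). Batf3, a transcription factor of the cDC1 lineage, stood at 131, 116 and 110.4 CPM across KI/+ libraries against 56.7, 95.1 and 85.9 CPM in AireKO (-0.59 ± 0.18, adjusted p = 0.798). Xcr1, the chemokine receptor that defines cDC1, stood at 36.9, 16.2 and 48.2 CPM against 23.3, 24.7 and 20.7 CPM (-0.56 ± 0.30). KI/+ replicate 2 has the lowest Xcr1 of all 6 libraries. Summed cDC1 genes were 2978, 2060 and 2382 CPM for KI/+ and 2717, 2210 and 1740 CPM for AireKO, which overlap. Without KI/+ replicate 2, 6 of 19 cDC1 genes were lower at an unadjusted p under 0.05 (2.89% of all genes in that fit), and 5 without the libraries numbered 2 (5.14%).

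Of 19 cDC2 genes 15 were positive (median 0.28), 3 of them at an unadjusted p under 0.05 (1.93% of all genes). Itgam, which encodes CD11b, stood at 34.6, 55.6 and 45.7 CPM across KI/+ libraries against 63.4, 52.7 and 106 CPM in AireKO (0.71 ± 0.26, adjusted p = 0.798). Lymphotoxin beta (Ltb) stood at 62.3, 76.7 and 63.6 CPM against 80.9, 86.5 and 90.6 CPM (0.35 ± 0.13), with no overlap. The median of the cDC2 genes was 0.07 without AireKO replicate 1 and 0.16 without AireKO replicate 3. Their count of 3 was 0 without KI/+ replicate 1 (1.28% of all genes higher in that fit), 1 without AireKO replicate 3 (1.79%) and 5 without AireKO replicate 2 (4.19%).

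Plasmacytoid DC genes were positive for 16 of 19 (median 0.29), and 0 passed an adjusted or an unadjusted p under 0.05. Their defining surface gene Siglech, chosen after its values were seen, stood at 178, 39.0 and 157 CPM across KI/+ libraries against 318, 55.4 and 84.3 CPM in AireKO, with the libraries numbered 2 lowest in both genotypes. Without AireKO replicate 1 the median was -0.25, and without AireKO replicate 2, 5 of 19 were higher at an unadjusted p under 0.05 (4.19% of all genes in that fit). Summed plasmacytoid genes ranged from 1344 to 1959 CPM in KI/+ and from 1502 to 2777 CPM in AireKO. The direction of this list thus rests on AireKO replicate 1.

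**Figure D5:**
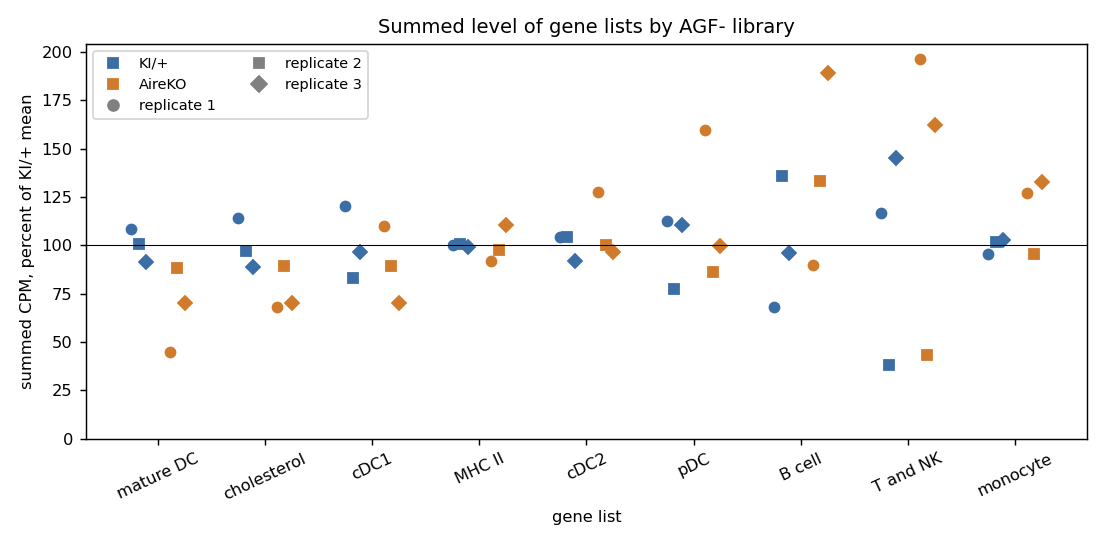
Summed CPM of 9 gene lists in each AGF- library, as a percent of the mean of the 3 KI/+ libraries (horizontal line at 100). Points are libraries, with shape giving the replicate number and colour the genotype. The mature DC list runs from 44.7% to 88.4% in AireKO, below all 3 KI/+ libraries, while the lists of B cell and of T and NK cell markers overlap between genotypes.

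Transcripts of other cell types were present in all 6 libraries and varied strongly between single libraries of a genotype. B cell and plasma cell markers were positive for all 19 genes (median 0.56), with 1 at an unadjusted p under 0.05 (1.93% of all genes) and 0 called. The median was 0.27 without KI/+ replicate 1 (18 of 19 positive) and 0.25 without AireKO replicate 3 (17 of 19 positive). In the latter fit 1 was lower at an unadjusted p under 0.05, beside 3.36% of all genes. Their sums stood at 1132, 2263 and 1602 CPM across KI/+ libraries against 1499, 2222 and 3152 CPM in AireKO, beside 248 to 320 CPM in the AGF+ libraries. AireKO replicate 1 lies below 2 of the 3 KI/+ libraries, and AireKO replicate 3 is the highest. With the replicate block 13 of the 19 were higher at an unadjusted p under 0.05 (3.73% of all genes in that fit). The count was also 13 without AireKO replicate 1 (2.56% of all genes in that fit), 9 without KI/+ replicate 2 (1.88%) and 7 without the libraries numbered 2 (2.20%). It was 0 without KI/+ replicate 1 (1.28%) or without AireKO replicate 3 (1.79%). Antigen receptor segments took 0.123%, 0.191% and 0.139% of counts in KI/+ and 0.117%, 0.163% and 0.493% in AireKO (exact two-sided permutation test, p = 0.7, smallest possible p 0.1).

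T and NK cell markers were positive for 19 of 21 (median 0.46), with 0 at an adjusted or an unadjusted p under 0.05. Their sums stood at 597, 194 and 743 CPM across KI/+ libraries against 1003, 221 and 829.7 CPM in AireKO, so the libraries numbered 2 are lowest in both genotypes. With the replicate block 6 of 21 were higher at an unadjusted p under 0.05 (3.73% of all genes in that fit), and 3 without AireKO replicate 2 (4.19%) and 2 without KI/+ replicate 3 (2.67%). Their median was 0.003 without KI/+ replicate 2, 0.22 without AireKO replicate 1, 0.25 without AireKO replicate 3, 0.91 without KI/+ replicate 3 and 0.90 without AireKO replicate 2.

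Monocyte and macrophage markers were positive for 21 of 23 (median 0.35, and 0.19 without AireKO replicate 1), with 3 higher at an unadjusted p under 0.05 (Ms4a7, Vcan and Cd14, beside 1.93% of all genes) and 0 called. The sums were 2555, 2717 and 2749 CPM across KI/+ libraries against 3402, 2548 and 3555 CPM in AireKO. AireKO replicate 2 thus lies below every KI/+ library and the other two AireKO libraries above. The matrix proteoglycan gene Vcan stood at 3.53, 8.61 and 4.98 CPM against 4.97, 7.68 and 42.5 CPM, so that its value rests on AireKO replicate 3. Without AireKO replicate 2 the count was 8 (4.19% of all genes in that fit), and 0 without KI/+ replicate 1 (1.28%). No gene of the B cell, T and NK cell or monocyte lists was at 0 in all 6 libraries. The part of these cells in the lower share of mature DC transcripts was not tested. AireKO replicate 1, with the lowest mature DC sum, had the highest sums of several lists among the AireKO libraries. These were T and NK (1003 CPM), plasmacytoid (2777 CPM), cDC1 (2717 CPM), cDC2 (3451 CPM) and stromal genes (245 CPM). It also had a monocyte sum of 3402 CPM and the lowest B cell sum (1499 CPM).

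Mitochondrially encoded genes took 0.636% ± 0.238 (SD, n = 3) of counts in KI/+ and 0.671% ± 0.207 in AireKO (exact two-sided permutation test, p = 0.6, smallest possible p 0.1, so that this test could not pass 0.05), with replicate 3 highest in both. Of 28 cell cycle genes 23 were negative and 5 positive (median -0.15, against 0.11 in AGF+ cells), 0 had an adjusted or an unadjusted p under 0.05, and 3 did not overlap between genotypes, all lower (4.82% of all genes). Their sums were 793, 823 and 913 CPM for KI/+ and 709, 765 and 895 CPM for AireKO, which overlap.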

How the data were processed

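RNA of sorted DCs was sequenced in 21 libraries, and the 12 of lymph node were used here. Per the labels' protocols, Ovation SoLo libraries came from 1.0 ng of RNA, whose integrity numbers exceeded 7, and were sequenced with paired 150 bp reads. Per the submitters' processing notes the tools were HTSeq 0.11.2, STAR 2.7.3a, edgeR 3.38.1, fastp 0.20.0, Picard 2.21.1 and SAMtools 1.9, with the builds mm10 and GRCm38. The sources used here state neither the annotation nor whether counting used strand or how it treated reads shared by genes. The authors deposited raw read counts for 55471 genes, and these counts were the input of every value. Symbols came from GENCODE vM21, which lacked 241 identifiers with 0.0139% of counts. The deposited normalized table was not used.

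All 12 lymph node libraries entered 1 fit of 4 group means in edgeR 4.0.16 (R 4.3.3) with TMM scaling, the expression filter by group, the quasi-likelihood F test and Benjamini-Hochberg adjustment over 15884 genes. A call is an adjusted p under 0.05. Named genes are Aire, Dnmt3l, calls, the 8 smallest p per direction among non-overlapping genes whose average log2 CPM was 3 or more (predicted genes, pseudogenes, receptor segments and sex-linked transcripts left out), up to 4 members of smallest p per list, neighbours of Aire, methyltransferases and markers of the sort. Some listed genes are not reported here by name. The comparison, its members and the gene lists were chosen with earlier results of these data known, so lists are described by counts and medians without a test. Lists share members (Relb in the mature and NF-kB lists, Ly6d in the B cell and plasmacytoid lists, Csf1r in the cDC2 and monocyte lists, Esam in the cDC2 and sort lists). Deviations of same-numbered AGF- libraries from their group means correlated at 0.390, 0.463 and 0.386 and those of other pairs at -0.387 to -0.042, so the numbers were taken as pairs and the block was run as an alternative. Such deviations sum to 0 within a group, so the negative values follow in part from the positive ones. Same-numbered AGF+ and AGF- libraries of the same genotype correlated at 0.197 to 0.365. The main fit, without the block, treats all these libraries as independent. The fit was tested on simulated counts. Alternatives were DESeq2 1.42.0 size factors and its Wald test, library size alone, 2 other count filters, limma 3.58.1 voom with sample weights, a test against a 1.5-fold change, an adjusted p under 0.01, the block, other sets of libraries and each AGF- library left out. The block in voom and DESeq2, and list counts without libraries, were added after the data were seen. Tables and figures used Python 3.11.15 with matplotlib 3.10.9, scipy 1.17.1, numpy 2.4.6 and pandas 2.3.3.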

Additional observations from a re-analysis of the deposited data

Results flagged for a closer look

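The genotype difference of Aire in AGF- DCs differed from that in AGF+ DCs by 2.0 on the log2 scale (adjusted p = 0.0045, interaction term in edgeR, 3 libraries per group), which is why it is listed here. In AGF+ cells all 3 AireKO libraries lay below all 3 KI/+ libraries, and in AGF- cells the libraries overlapped. In AGF- cells the mean Aire level was 12.6% of that in AGF+ cells in KI/+ mice and 50.2% in AireKO mice. Groups of 3 libraries were too small to test single libraries as outliers.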

How the results depend on the processing

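The call of Dnmt3l and its direction held in every alternative run except the fit of only the 6 AGF- libraries, where its log2 fold change was 5.14 (adjusted p = 0.0920) and 0 genes were called (579 at an unadjusted p under 0.05). Over all alternatives its log2 fold change ranged from 4.39 to 5.84. The count of 1 genotype call became 270 (68 higher, 202 lower) of 32883 genes with no filter on low counts. Called lower there were 17 of 37 mature DC, 4 of 23 NF-kB, 2 of 20 sterol and 2 of 19 cDC1 genes. Called higher were 4 of 19 B cell, 2 of 21 T and NK and 2 of 23 monocyte genes. So were 1 of 19 cDC2 and 1 of 19 plasmacytoid genes. The count was 3 with the DESeq2 Wald test, 2 with the replicate block and 6 with the replicate block in DESeq2. It ranged from 1 to 89 with 1 library left out. The 1 interaction call became 14 with no filter, 2 with the DESeq2 Wald test, 2 with the replicate block, 2 with the replicate block in DESeq2 and 0 without the libraries numbered 2 (326 at an unadjusted p under 0.05), and ranged from 1 to 2 with 1 AGF- library left out. The second interaction call with the block was Fn1, chosen after its values were seen. The Aire interaction of 2.0 was 2.02 (adjusted p = 0.674) without the libraries numbered 2, and ranged from 1.89 to 2.11 with 1 AGF- library left out. The cause of these moves was not tested, except that the fit of 6 libraries and those without libraries rest on fewer samples. No called value reversed its direction. For Aire, Dnmt3l and the 15 genes with the smallest p, 305 of 322 alternative values kept their side of the threshold, 16 newly passed it and 1 lost it. Of the gene list medians, that of the plasmacytoid genes turned from 0.29 to -0.25 without AireKO replicate 1, and that of the sex-linked transcripts, near 0, turned with other scaling. Uncalled genes near 0 also turned sign in some alternatives. Depth limits genes under an average log2 CPM of 3, of which 27.4% had an interval inside a 2-fold change. The fit of only the AGF- libraries could not give the interaction.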

Other observations

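Several gene groups outside the lists above had single members at an unadjusted p under 0.05, with 0 calls in each. Over all genes 1.93% were higher and 4.04% lower at that p, and 54.7% had a log2 fold change above 0. Of 26 immediate early and heat shock genes 2 were higher, the inducible Hsp70 genes Hspa1b and Hspa1a. Hspa1b stood at 18.1, 47.6 and 30.8 CPM across KI/+ libraries against 33.8, 89.5 and 168 CPM in AireKO (log2 fold change 1.59 ± 0.48, adjusted p = 0.798 by edgeR), and within each genotype replicate 1 was lowest. The near-identical copies can share reads. Of 27 interferon response genes 21 were positive (median 0.07), with 2 higher (Rtp4 and Oas1a) and 1 lower, the latter near the share of all genes. The lower one was Mx1, an antiviral GTPase, at 498, 498 and 404 CPM against 238, 422 and 225 CPM (-0.66 ± 0.22, adjusted p = 0.798). The adaptor of Toll-like receptors Myd88 stood at 53.4, 44.6 and 47.3 CPM against 67.4, 56.0 and 79.0 CPM (0.48 ± 0.15), without overlap. Of 12 Langerhans cell genes 8 were negative (median -0.12), and their sums stood at 764, 931 and 853 CPM across KI/+ libraries against 454, 866 and 591 CPM in AireKO, lowest in AireKO replicate 1 like the mature DC genes.

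Genes outside the naming rule, chosen after their values were seen, included Stab1, a scavenger receptor of macrophages and sinusoidal endothelium. It measured 1.65, 2.58 and 0.452 CPM across KI/+ libraries against 32.2, 22.7 and 2.03 CPM in AireKO (3.57 ± 0.89, adjusted p = 0.798), with AireKO replicate 3 inside the KI/+ range. The complement receptor gene C5ar1 stood at 1.88, 1.51 and 0.226 CPM against 4.77, 4.21 and 6.89 CPM (2.11 ± 0.56, adjusted p = 0.798), without overlap. The cystine transporter gene Slc7a11 stood at 179, 117 and 169.6 CPM against 50.1, 97.0 and 97.3 CPM (-0.93 ± 0.26, adjusted p = 0.798), also without overlap. Fibronectin (Fn1) stood at 31.3, 18.5 and 31.2 CPM against 27.4, 38.6 and 48.4 CPM in AGF- cells (0.50 ± 0.26), beside a log2 fold change of -3.01 ± 0.46 in AGF+ cells, and its interaction of 3.51 ± 0.54 did not pass the adjusted test (adjusted p = 0.0922).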
